A study of Mus musculus with 13 samples.

Results

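The genes described here are 9 genes of glycogen metabolism in mouse liver. Of them, 4 encode glycogen-targeting subunits of protein phosphatase 1 (Ppp1r3b, Ppp1r3c, Ppp1r3d and Ppp1r3g), and 5 encode enzymes of glycogen synthesis (Gys2, Gbe1 and Ugp2) or breakdown (Pygl and Phka2). The genes were chosen by name with earlier results of these arrays known, among them the differences of Ppp1r3c and Ppp1r3g between treated and untreated mice, so the adjusted p values below describe these arrays and are not independent evidence. Where a gene had several probe sets, the set was selected on its mean log2 value over all 13 arrays. All 9 were on the array, with 10 probe sets among them, out of 22180 genes with a probe set that names a single gene. Of the 9, 8 were among the 13308 genes bright enough to be tested, and Ppp1r3d was not.

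The 13 arrays, 1 per sample, hold liver RNA from male C57Bl/6J mice. In every group the mice were 6 weeks old when they began a diet with 60% fat, which they ate freely for 4 weeks to become obese. The HFD group (4 arrays) stayed on that diet for another 4 weeks, and the CANA group (4 arrays) ate it together with canagliflozin at 25 to 30 mg/kg. The CR group (5 arrays) was held to the body weight of the CANA group by a caloric restriction of 15 to 30%. Canagliflozin blocks SGLT2, the kidney transporter that reclaims glucose from the urine. The restricted group is a control for weight loss, and it differs from the others in food intake as well.

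Glycogen is the branched glucose polymer in which hepatocytes store sugar after a meal. Glycogen synthase lengthens its chains, and phosphorylase shortens them. Phosphorylation switches the synthase off and the phosphorylase on. Protein phosphatase 1 reverses both switches, and it reaches glycogen through targeting subunits of the PPP1R3 family, each of which binds the phosphatase and the glycogen particle. Liver holds several of these subunits at once, and their amounts are known to change with feeding and with insulin.

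The values are log2 expression after the robust multi-array average, so a difference of 1 is a doubling. They carry no read depth, and precision is limited by how many arrays each group has. The array medians lay between 4.07 and 4.13, and pairs of arrays correlated at 0.977 to 0.989 across genes. All 7 hepatocyte markers were tested, and their mean level was 12.27 to 12.33 in HFD, 12.24 to 12.34 in CANA and 12.29 to 12.36 in CR. Of 4 skeletal muscle markers 1 was above the limit for testing, and their mean level was 3.88 to 4.00, 3.85 to 4.09 and 3.90 to 4.11 in the same order. No tested marker of 9 cell types was called in any comparison. Only 1 of 5 leukocyte, 1 of 4 adipocyte and 1 of 4 pancreas markers was tested, so little can be said of these types. In RNA of whole liver fewer cells of a type and less RNA per cell cannot be told apart. The labels also give each array a serial number from 1 to 14, and every group has arrays numbered 1 to 8 and arrays numbered 9 to 14. Because earlier results showed a difference between these sets of numbers, values within each set are given below. The labels do not say whether each array stands for a separate mouse, so the p values rest on the spread between samples, which may be technical.

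Promoter windows are shown for Ppp1r3c and Ppp1r3g because these genes differed most between the groups, and in opposite directions. Each window runs from 250 bases before to 50 bases after the annotated start, in RefSeq's GRCm38.p6. RefSeq's table gave windows for 7 of the 9 genes, and had no entry for Ppp1r3b or Gys2. The Ppp1r3c window is chr19:36736555-36736854 on the minus strand, and the Ppp1r3g window is chr13:35967656-35967955 on the plus strand. Both read 5′ to 3′ along the gene, and capitals mark the matches to 6 motifs searched on both strands.
Ppp1r3c: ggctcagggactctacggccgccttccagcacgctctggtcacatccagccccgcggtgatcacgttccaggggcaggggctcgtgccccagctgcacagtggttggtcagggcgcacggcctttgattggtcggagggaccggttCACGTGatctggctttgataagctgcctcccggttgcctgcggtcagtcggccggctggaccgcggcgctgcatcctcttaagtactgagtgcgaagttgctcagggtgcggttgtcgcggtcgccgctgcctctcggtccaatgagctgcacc
Ppp1r3g: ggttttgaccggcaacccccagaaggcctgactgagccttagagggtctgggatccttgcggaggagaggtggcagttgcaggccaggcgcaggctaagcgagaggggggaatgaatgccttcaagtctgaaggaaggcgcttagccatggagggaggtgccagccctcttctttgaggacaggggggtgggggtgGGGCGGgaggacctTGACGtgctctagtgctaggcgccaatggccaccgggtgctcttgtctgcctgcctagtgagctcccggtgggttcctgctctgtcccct

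The capitals in the Ppp1r3c window are an E-box, CACGTG, the type of site bound by basic helix-loop-helix factors, whose first base lay at -104 from the start. The E-box occurred in 7.15% of all 32851 windows of this length. In the Ppp1r3g window the first match, at -54, is the Sp1 motif GGGCGG (35.7% of all windows). The second, at -40, is TGACG (20.8%), the half-site of the cAMP response element. Neither window held the whole response element TGACGTCA (1.79% of all windows), which contains the half-site, nor the FoxO motif TGTTTAC (3.65%), nor TATAAA (13.6%). Among the other members, the Ppp1r3d window held an E-box and 2 half-sites, and the Pygl window held 1 half-site. The Sp1 motif was also found in the windows of Ppp1r3d, Gbe1, Ugp2, Pygl and Phka2. A match describes the letters of a window and does not show that a factor binds there.

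Ppp1r3c, which encodes the subunit also called PTG (protein targeting to glycogen), was lowest under canagliflozin and highest under caloric restriction. In HFD its log2 values were 6.47, 5.88, 7.18 and 6.95 in replicates 1 to 4, in CANA 5.47, 5.13, 4.81 and 5.44, and in CR 7.46, 7.00, 7.19, 7.16 and 7.81 in replicates 1 to 5. All CANA arrays lay below all arrays of both other groups, whereas HFD replicate 3 lay above CR replicates 2 and 4. The mean fell by 1.41 from HFD to CANA (SE 0.24, 95% interval -1.92 to -0.90, limma adjusted p = 0.0369), from 6.62 ± 0.58 to 5.21 ± 0.31 (SD, n = 4 each). Against CR, at 7.32 ± 0.32 (n = 5), the CANA level was 4.32-fold lower (difference -2.11, SE 0.23, 95% interval -2.60 to -1.62, limma adjusted p = 0.00134). Among the 13308 genes tested, Ppp1r3c had rank 1 by p in CANA against CR and rank 10 in CANA against HFD. The comparisons share the CANA arrays. The call against HFD was lost in a fit of only these groups (limma adjusted p = 0.0669) and with an intensity trend and robust prior (0.0567). The CR minus HFD difference was 0.70 (SE 0.23, 95% interval 0.21 to 1.19) and did not pass (limma adjusted p = 0.999).

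Ppp1r3g, a subunit gene whose product acts on liver glycogen synthesis, had the opposite pattern in CANA. Its log2 values were 4.41, 4.74, 4.63 and 4.54 in HFD, 5.47, 5.57, 6.97 and 5.92 in CANA, and 4.69, 4.82, 4.00, 4.59 and 4.88 in CR. Every CANA array was above every array of the other groups, and CANA replicate 3 was the highest by more than 1 log2 unit. The level rose 2.65-fold from HFD (4.58 ± 0.14) to CANA (5.98 ± 0.69), a difference of 1.41 (SE 0.26, 95% interval 0.85 to 1.96, limma adjusted p = 0.0466). It was 2.62-fold higher in CANA than in CR (4.60 ± 0.35), a difference of 1.39 (SE 0.25, 95% interval 0.86 to 1.91, limma adjusted p = 0.0363). Both calls were lost in fits of only the groups compared (limma adjusted p = 0.0836 against HFD and 0.0912 against CR) and with an intensity trend and robust prior (0.0658 and 0.066). CR and HFD differed by 0.02 (95% interval -0.51 to 0.54). The HFD and CR levels are near the lower limit for testing, 3.95, where array signals are compressed, so the fold changes are uncertain in size.

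Ppp1r3b encodes G(L), the classical liver targeting subunit. Its log2 values were 9.34, 8.78, 9.43 and 9.71 in HFD, 8.53, 8.38, 8.55 and 8.48 in CANA, and 9.74, 9.27, 8.57, 9.53 and 9.59 in CR. The CANA arrays formed a narrow band below all others, with an SD of 0.07 against 0.39 in HFD and 0.46 in CR, and CR replicate 3 lay just above that band. The CANA mean of 8.49 differed from the HFD mean of 9.32 by -0.83 (SE 0.22, 95% interval -1.29 to -0.37, limma adjusted p = 0.185) and from the CR mean of 9.34 by -0.85 (SE 0.21, 95% interval -1.29 to -0.42, limma adjusted p = 0.171), and neither passed.

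A further probe set of Ppp1r3b gave 8.56, 8.01, 8.79 and 8.67 in HFD, 7.81, 7.58, 7.91 and 7.62 in CANA, and 8.87, 8.52, 8.40, 8.97 and 8.49 in CR. Here too the CANA arrays were all below the others. Used in place of the first, it gave -0.78 in CANA against HFD (limma adjusted p = 0.0668) and -0.92 in CANA against CR, which passed (limma adjusted p = 0.024). The call in CANA against CR thus depends on which probe set is read.

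Ppp1r3d, a subunit gene with a wide tissue range, had a mean over all arrays of 3.90, just under the limit of 3.95. Its arrays ran from 3.93 to 4.26 in HFD, from 3.68 to 3.94 in CANA and from 3.56 to 3.98 in CR. The groups overlapped, and no call is given for it. In a fit without the limit its differences were -0.20 for CANA minus HFD, -0.22 for CR minus HFD and 0.02 for CANA minus CR.

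**Figure D1:**
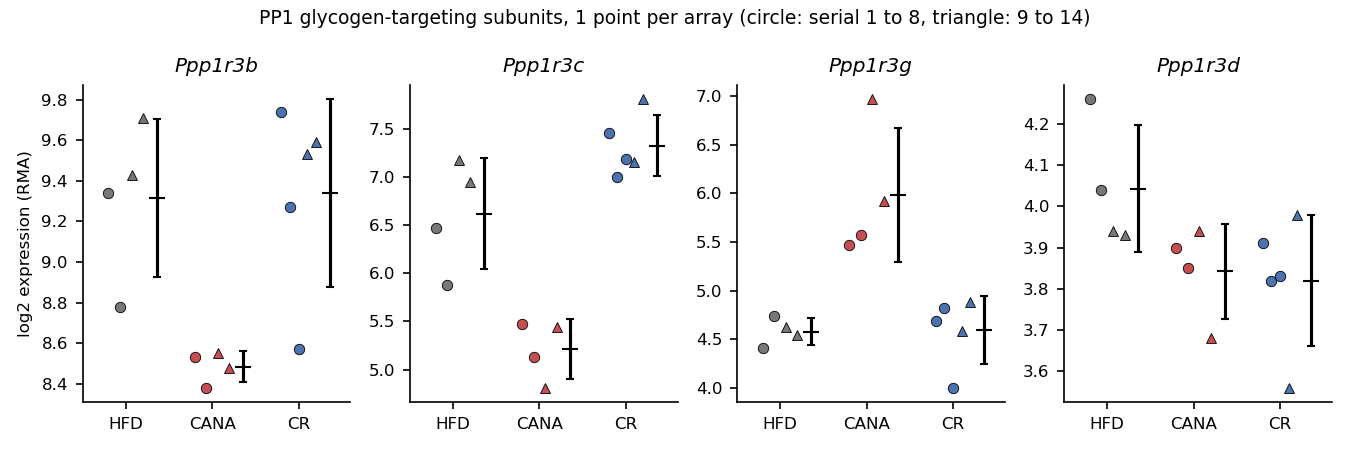
Log2 expression of the 4 targeting subunit genes in each array of the HFD, CANA and CR groups, with the mean and SD as a bar beside the points; circles are arrays with serial numbers 1 to 8, triangles those with 9 to 14, and each panel has its own scale. For Ppp1r3b and Ppp1r3c all CANA arrays lie below the other groups, for Ppp1r3g all lie above, and for Ppp1r3d the groups overlap.

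None of the 5 enzyme genes was called in any comparison by limma. Gys2 encodes liver glycogen synthase, the enzyme that the phosphatase switches on. Its log2 values were 10.92, 11.03, 10.89 and 11.34 in HFD, 11.16, 11.60, 11.27 and 11.33 in CANA, and 10.96, 11.07, 11.08, 10.56 and 10.96 in CR. All CANA arrays were above all CR arrays, and HFD replicate 4 reached into the CANA range. CANA minus HFD was 0.30 (SE 0.14, 95% interval 0.01 to 0.58, limma adjusted p = 0.545), and CANA minus CR was 0.41 (SE 0.13, 95% interval 0.14 to 0.68, limma adjusted p = 0.33), so neither passed. Without CR replicate 4, the lowest array, CANA minus CR was 0.32 (limma adjusted p = 0.579).

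Gbe1 encodes the branching enzyme, which forms the side chains of glycogen. It ranged from 8.75 to 9.16 in HFD, from 8.69 to 8.95 in CANA and from 8.71 to 9.18 in CR. Ugp2 encodes UDP-glucose pyrophosphorylase, which makes the synthase's substrate, and it ranged from 10.24 to 10.55, from 10.12 to 10.34 and from 10.08 to 10.57 in the same order. The groups overlapped for both genes. No Gbe1 or Ugp2 difference was larger in size than 0.18, and none passed (lowest limma adjusted p = 0.743).

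Pygl encodes liver glycogen phosphorylase, which releases glucose 1-phosphate from the chains. Its log2 values were 10.01, 9.76, 9.72 and 9.74 in HFD, 9.78, 9.62, 9.51 and 9.20 in CANA, and 9.88, 9.76, 9.83, 9.64 and 9.76 in CR. CANA held the 3 lowest arrays, but CANA replicate 1 lay among those of the other groups. CANA minus HFD was -0.28 (SE 0.12, 95% interval -0.53 to -0.03, limma adjusted p = 0.501), and CANA minus CR was -0.25 (SE 0.11, 95% interval -0.49 to -0.01, limma adjusted p = 0.564). Without CANA replicate 4 these differences were -0.17 and -0.14.

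Phka2 encodes the liver regulatory alpha subunit of phosphorylase kinase, the enzyme that activates phosphorylase. It ranged from 6.62 to 7.24 in HFD, from 6.80 to 6.92 in CANA and from 6.85 to 7.14 in CR, so the HFD range spanned all CANA and CR arrays. Its differences were -0.14 for CANA minus HFD (95% interval -0.40 to 0.12) and -0.11 for CANA minus CR (95% interval -0.36 to 0.14).

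**Figure D2:**
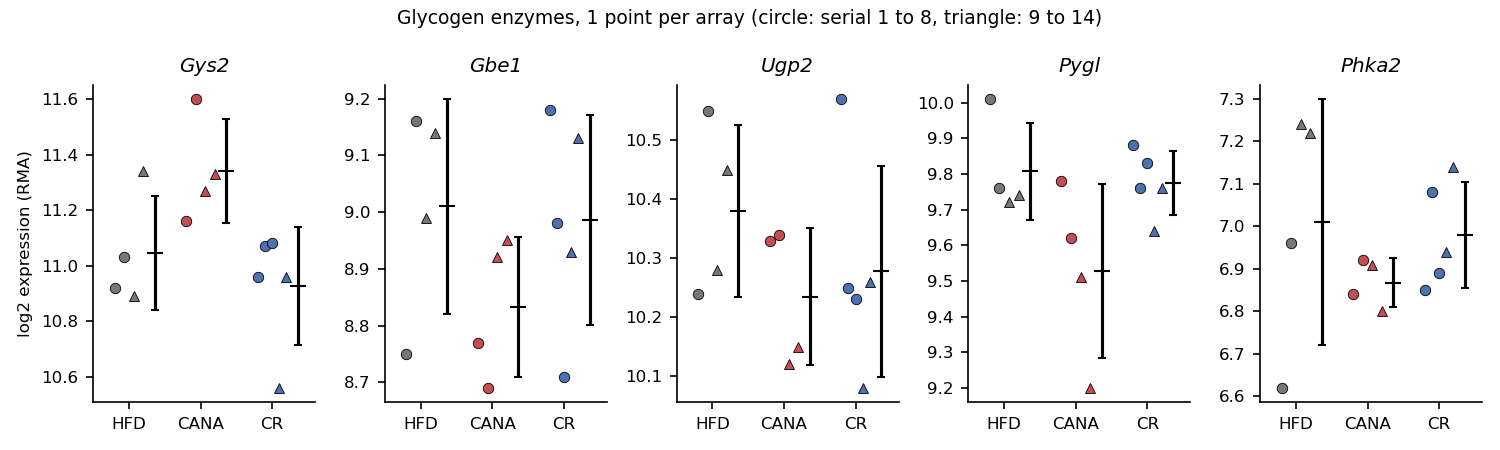
Log2 expression of the 5 enzyme genes in each array of the HFD, CANA and CR groups, with the mean and SD as a bar; circles are serial numbers 1 to 8, triangles 9 to 14, and each panel has its own scale. The groups overlap in each panel except for CANA against CR in Gys2.

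The first comparison, of CANA with HFD, asks what the drug changed on a constant diet. Of the 8 tested members 2 were called, Ppp1r3g higher and Ppp1r3c lower, where 0.165% of all tested genes were called at a limma adjusted p under 0.05. The arrays of the groups did not overlap for 3 of the 8 (Ppp1r3b, Ppp1r3c and Ppp1r3g), against 4.9% of all tested genes. The members were named with this comparison known, so nothing is read from these shares. The median difference of the 8 was -0.16, beside -0.014 over all tested genes. Of the 8, 6 were below zero, where 46.1% of all tested genes were above it.

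The comparison of CANA with CR asks how the drug differs from an equal body weight reached by eating less. Again 2 of 8 members were called, Ppp1r3g higher and Ppp1r3c lower, beside 0.15% of all tested genes. The arrays did not overlap for 4 of the 8 (Ppp1r3b, Ppp1r3c, Ppp1r3g and Gys2), beside 2.93% of all tested genes. The median difference of the 8 was -0.13, beside -0.004 over all tested genes. This comparison uses the same CANA arrays as the first, so its counts do not stand apart from it.

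The comparison of CR with HFD asks what the restriction itself changed. No member was called, and 0% of all tested genes were called by limma, where 498 had an unadjusted p under 0.05. No member had arrays without overlap, beside 1.17% of all tested genes. Apart from Ppp1r3c at 0.70, the differences of the tested members ran from -0.12 (Gys2) to 0.02 (Ppp1r3b). Among these the widest intervals were those of Ppp1r3g, -0.51 to 0.54, and Ppp1r3b, -0.41 to 0.46. An interval does not give the smallest difference that could be called. Ppp1r3c at 0.70 was not called either (limma adjusted p = 0.999). For Pygl the interval was -0.27 to 0.21, and for Ugp2 it was -0.33 to 0.12.

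**Figure D3:**
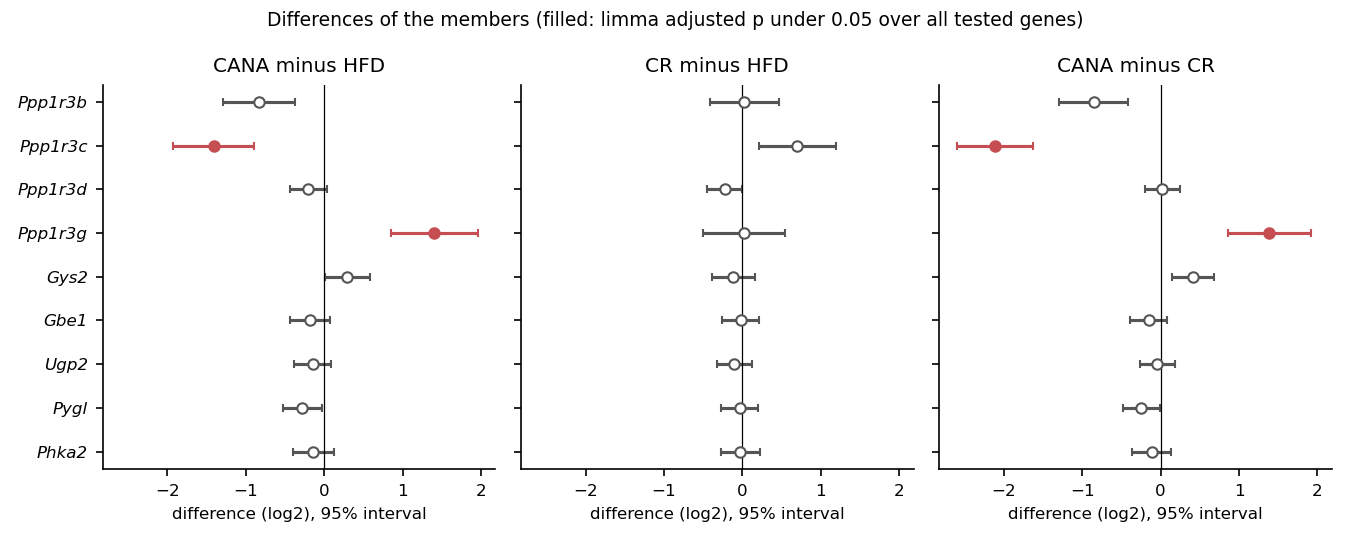
Log2 differences of the 9 genes in the 3 comparisons, with 95% intervals from the limma fit; filled points passed an adjusted p of 0.05 over all tested genes, and Ppp1r3d comes from the fit without the limit on dim genes. Ppp1r3c and Ppp1r3g are the filled points in both comparisons that involve CANA, and no point is filled for CR minus HFD.

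Within the sets of serial numbers the directions of the 3 largest differences were kept. For Ppp1r3c, CANA minus HFD was -0.88 within numbers 1 to 8 and -1.94 within 9 to 14, and neither passed by limma (adjusted p = 0.5 and 0.119, 2 arrays per group in each set). The HFD arrays of Ppp1r3c averaged 6.18 in the first set and 7.07 in the second, and the CANA arrays 5.30 and 5.13. CANA minus CR was -1.92 with 3 CR arrays, which passed (limma adjusted p = 0.0215), and -2.36 with 2 CR arrays, which did not (adjusted p = 0.2). For Ppp1r3g, CANA minus HFD was 0.95 and 1.86 (limma adjusted p = 0.5 and 0.119) and CANA minus CR was 1.02 and 1.71 (adjusted p = 0.358 and 0.317), so it passed in neither set. For Ppp1r3b, CANA minus HFD was -0.61 and -1.05. Whether the differences vary between the sets was not tested.

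Several calls changed when 1 array was left out. Such a fit also has fewer arrays, so a lost call need not rest on the values of the array left out. Ppp1r3c in CANA against CR passed whichever of the 13 arrays was left out, with differences between -2.20 and -1.98. In CANA against HFD it passed in 7 of 13. Without CANA replicates 2, 3 and 4 its limma adjusted p was 0.0799, 0.127 and 0.0508, and without HFD replicates 1, 3 and 4 it was 0.0586, 0.096 and 0.0939. Without HFD replicate 1 the difference was -1.46, larger in size than over all arrays.

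Ppp1r3g in CANA against HFD passed in 3 of 13 such fits, those without CANA replicate 1, CR replicate 3 or CR replicate 5. In the other 10 its limma adjusted p ran from 0.054 (without CR replicate 4) to 0.114 (without HFD replicate 4). Without CANA replicate 3, its highest array, the difference was 1.08 (adjusted p = 0.076). In CANA against CR it passed in 5 of 13. Those that did not pass left out CR replicates 1, 2, 3 and 4 (adjusted p = 0.0915, 0.066, 0.074 and 0.101), CANA replicates 2 and 4 (0.0504 and 0.082) or HFD replicates 2 and 4 (0.0503 and 0.0556). Without CR replicate 3, which lay just above the CANA band in the first probe set, Ppp1r3b passed in both comparisons with that set. The differences were -0.83 against HFD (limma adjusted p = 0.0499) and -1.04 against CR (adjusted p = 0.0194).

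**Figure D4:**
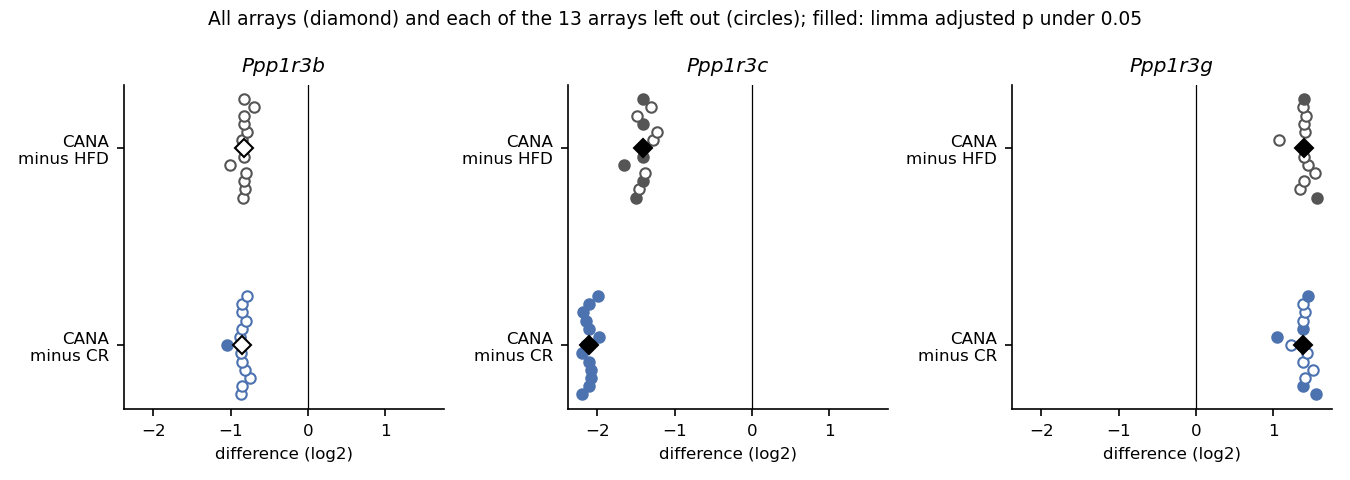
Log2 differences of Ppp1r3b, Ppp1r3c and Ppp1r3g for CANA minus HFD and CANA minus CR, over all arrays (diamonds) and with each of the 13 arrays left out (circles, spread vertically for sight); filled symbols passed a limma adjusted p of 0.05. The directions hold in every fit, and Ppp1r3c in CANA minus CR is filled in all 13.

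Of 35 further genes of glycogen metabolism, 24 were tested, and no gene passed in any comparison by limma, the smallest adjusted p being 0.16. An unadjusted p under 0.05 was found for 3 of the 24 in CANA against HFD (12.5%, beside 8.82% of all tested genes), for 0 in CR against HFD (beside 3.74%) and for 5 in CANA against CR (20.8%, beside 8.43%). The arrays of the groups did not overlap for 2 of the 24 in CANA against HFD, G6pc and Phkg2 (beside 4.9% of all tested genes). The count was 0 in CR against HFD (beside 1.17%) and 2 in CANA against CR, Gckr and Prkaca (beside 2.93%). In CANA against HFD 7 were above and 17 below zero, with a median of -0.02. In CR against HFD it was 10 and 14 (median -0.01), and in CANA against CR 11 and 13 (median -0.01). Of all tested genes 46.1%, 46.4% and 48.8% were above zero in these comparisons, in the same order.

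Of 9 genes for synthesis and glucose 6-phosphate, 7 were tested. G6pc encodes the catalytic subunit of glucose-6-phosphatase, which frees glucose for export, and it had the smallest p of the 24 in CANA against HFD. It stood at 11.84 in CANA, 11.21 in HFD and 11.43 in CR, with differences of 0.63 for CANA minus HFD (SE 0.16, limma adjusted p = 0.16), 0.41 for CANA minus CR (adjusted p = 0.47) and 0.22 for CR minus HFD. Gckr, the regulatory protein that holds glucokinase in the nucleus, was at 9.28 in CANA, 9.58 in HFD and 9.60 in CR. Its differences were -0.30 against HFD (adjusted p = 0.354) and -0.32 against CR (adjusted p = 0.312), and its CANA arrays were all below those of CR.

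Of 11 breakdown genes, 5 were tested. Phkg2, the catalytic subunit of liver phosphorylase kinase, was at 7.36 in CANA, 7.62 in HFD and 7.59 in CR, a difference of -0.26 against HFD (limma adjusted p = 0.392) and -0.22 against CR (adjusted p = 0.52). Pygm, the muscle phosphorylase, had a mean of 3.59 and was not tested. Pygb, the brain phosphorylase, had the second smallest p of the 24 in CR against HFD, at 0.20 (adjusted p = 0.999).

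The 3 catalytic subunit genes of the phosphatase, Ppp1ca, Ppp1cb and Ppp1cc, and the targeting subunit gene Ppp1r3e were tested, and their differences in CANA against HFD ran from -0.02 to 0.07. Against CR they ran from -0.09 to 0.13. Ppp1ca was at 0.13 in CR minus HFD (limma adjusted p = 0.999). Ppp1r3a and Ppp1r3f, further targeting subunits, had means of 2.57 and 3.09 and were not tested. Of 9 regulators and glycogen-bound proteins 8 were tested. Stbd1, which tethers glycogen to membranes, had the smallest p in CR against HFD, at -0.20 (adjusted p = 0.999).

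**Figure D5:**
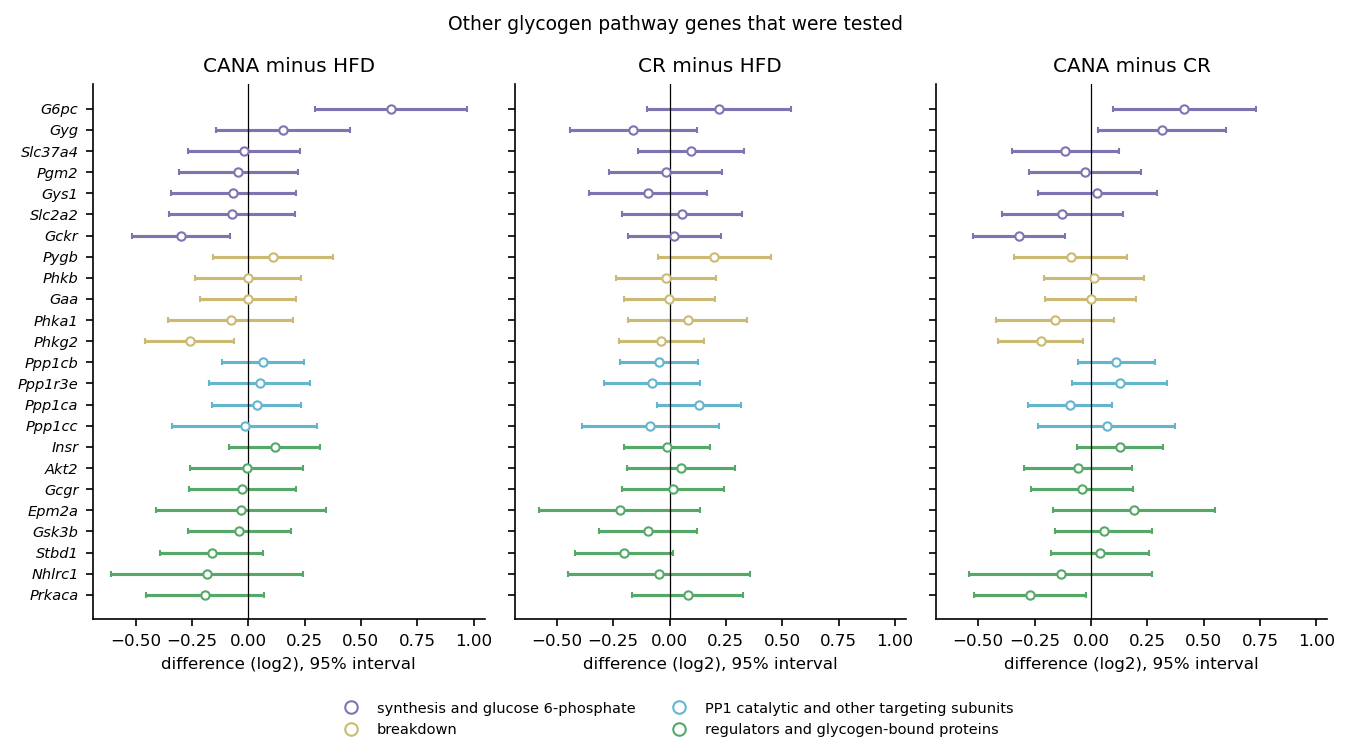
Log2 differences with 95% intervals of the 24 tested further genes of glycogen metabolism in the 3 comparisons, coloured by role. No gene passed an adjusted p of 0.05, and G6pc, at 0.63 in CANA minus HFD, lies farthest from zero.

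Genes whose levels followed those of the members most closely over the 13 arrays were ranked by Pearson r, as a description that includes the difference between groups. Predicted or unnamed loci were left out of the ranking. For Ppp1r3c the 5 highest were Thrsp (0.93), Pemt (0.89), Hey1 (0.88), Cdkn2aipnl (0.88) and Pklr (0.87), where 1% of the ranked genes exceeded 0.72. Around the group means, which takes the group differences out, these were 0.77, 0.33, 0.81, 0.80 and 0.46. Thrsp, a regulator of lipogenesis, had a CANA minus CR difference of -1.09, and Pklr, the liver pyruvate kinase, differed by -0.97.

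For Ppp1r3b the 5 were Anapc16 (0.88), Khk (0.87), Trim7 (0.86), Zranb3 (0.85) and Thrsp (0.85), with 0.86, 0.69, 0.76, 0.77 and 0.56 around the group means. Thrsp was thus among the 5 of both subunit genes whose CANA arrays were all below the others. Ppp1r3b and Ppp1r3c themselves correlated at 0.82 over the 13 arrays and at 0.56 around the group means, so the shared gene is no separate result. For Ppp1r3g the 5 were C9orf72 (0.94), Ppargc1a (0.94), Rab30 (0.93), Ppp2r2d (0.92) and Hsdl2 (0.91), with 0.84, 0.84, 0.76, 0.85 and 0.67 around the group means. Ppargc1a, a transcriptional coactivator of fasting genes, had differences of 1.37 in CANA against HFD and 1.09 against CR. For Gys2 the 5 were Gstt2 (0.90), Ncl (0.89), Kcnq1ot1 (0.89), Cd46 (0.86) and Amacr (0.86), with 0.87, 0.79, 0.85, 0.77 and 0.78 around the group means.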

How the data were processed

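Total RNA of liver was labelled by a whole-transcript protocol and hybridised to Affymetrix arrays, per the labels. The authors deposited log2 values for 41345 probe sets, computed with RMA in Affymetrix Expression Console per the submitters' processing notes; versions and annotation are not given in the sources used here. Gene names came from the platform annotation, with symbols updated by Entrez identifier (23328 of 23521 single-gene probe sets matched). Per gene the probe set with the highest mean was kept, and genes with means below the 40th percentile (3.95) were left out, which left 13308.

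The 3 groups were compared in a single fit with limma 3.58.1 in R 4.3.3, without covariates, two-sided, with a gene called where its p, adjusted by Benjamini-Hochberg over all tested genes, was under 0.05. The code was checked on simulated data. Alternatives were other limits for dim genes, normalizations, variance models and probe sets, array weights, fits of 2 groups alone, a replicate block, a term for the serial number or its set, and leaving out each array. The genes, lists, motifs and comparisons were chosen with earlier results of these data known. The rule for named genes took all members and the 3 further pathway genes with the smallest p in each comparison. It also took the 5 genes closest in pattern to each of 4 members, with predicted or unnamed loci left out. Others are named for their role or to complete a family or a count.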

Additional observations from a re-analysis of the deposited data

Results flagged for a closer look

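Gys2 in CR replicate 4 stood apart from its group, at 10.56 where the other CR arrays were at 10.96 to 11.08. Pygl in HFD replicate 1 did so too, at 10.01 where the other HFD arrays were at 9.72 to 9.76. Both were found by the gap of the extreme array to its neighbour, over the range of the group (0.758 and 0.874). The 9 members in 3 groups gave 27 such checks, and chance flags about 1 group in 20. Without HFD replicate 1, Pygl in CANA minus HFD was -0.21 (limma adjusted p = 0.696).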

How the results depend on the processing

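The CANA against HFD count of 22 called genes was 56 at an adjusted p of 0.10, 12 with no limit on dim genes, 14 and 39 with limits at the 20th and 60th percentile, and 14 with an intensity trend and robust prior. It was 40 with the serial number and 46 with its set as a term, 2 within numbers 1 to 8 and 0 within 9 to 14 (738 and 1290 genes with an unadjusted p under 0.05 by limma). Leaving out 1 array gave 3 to 38, with 38, 5, 3 and 11 without CANA replicates 1 to 4 and 10, 6, 5 and 7 without HFD replicates 1 to 4. The CANA against CR count of 20 was 34 at 0.10, 5 within numbers 1 to 8 and 0 within 9 to 14 (910 with an unadjusted p under 0.05), and 7 to 23 with 1 array left out: 8, 8 and 12 without CR replicates 1, 2 and 4, and 9, 7 and 8 without CANA replicates 2, 3 and 4. The CR against HFD count of 0 became 1 with the replicate block, the serial number or its set. The cause was not tested. The labels do not say that replicate numbers pair the arrays, and 7 of 12 same-number pairs had deviations correlated over 0.1 (range -0.15 to 0.30), short of every pair, while 4 of 12 arrays correlated best with their own number in both other groups; with the replicate block the counts were 29, 1 and 17, and Ppp1r3g had an adjusted p of 0.0939 against HFD and 0.0877 against CR. Ppp1r3g in CANA against HFD also missed the threshold with 0.0633 and 0.0566 (no limit, 20th percentile) and 0.0505 (median centring).

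Small differences changed sign. In CR minus HFD, Ppp1r3b was -0.037 with the block, -0.010 within numbers 9 to 14 and -0.15 to 0.22 with 1 array left out. Ppp1r3g was -0.052 with the block, -0.011 with the serial number, -0.069 within 1 to 8 and -0.052 to 0.17 with 1 array left out. Within numbers 1 to 8 Gys2 was 0.064 and Phka2 was 0.15. With 1 array left out Phka2 was -0.16 to 0.049, Gbe1 -0.11 to 0.045 and Pygl -0.060 to 0.037. In CANA minus HFD, Phka2 was 0.090 within 1 to 8. In CANA minus CR, Ppp1r3d was -0.0059 with the serial number and -0.043 to 0.076 with 1 array left out, and Ugp2 -0.092 to 0.031. A limit at the 60th percentile left Ppp1r3g out. All other member differences kept their direction in the fits run. Signals near the limit of 3.95 bound what can be said of Ppp1r3d and of Ppp1r3g in HFD and CR.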

Other observations

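In a fit with group and serial number together, Pygl fell along the serial number by 0.028 per number (unadjusted p = 0.0074, limma adjusted p = 0.216), and Phka2 had a slope of 0.023 (unadjusted p = 0.0427, adjusted p = 0.4); neither passed. The other 6 tested members had slopes between -0.014 (Ugp2) and 0.033 (Ppp1r3c), with adjusted p of at least 0.586.

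Within single arrays, the Ppp1r3c value minus the Ppp1r3g value ran from 1.15 to 2.56 in HFD, from 2.18 to 3.19 in CR and from -2.16 to 0.00 in CANA. Since different probe sets are not on the same scale, the shift between groups and not the sign is what can be read. The members were chosen with these differences known, so no test is given.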
